A study of Mus musculus with 2 samples.

Results

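The myeloid members of the MS4A family were followed in adventitial immune cells of the mouse aorta. The 6 genes were *Ms4a4a*, *Ms4a4c*, *Ms4a6b*, *Ms4a6c*, *Ms4a6d* and *Ms4a7*, found by their symbols among the 55386 features of the count matrices, and each matched 1 feature. CD45+ cells were sorted from the aortic adventitia of *Rank*-Cre *Rosa26*-eYFP mice of about 16 weeks, in which Cre driven by *Rank* switches on eYFP in yolk sac-derived macrophages and their progeny. One library came from 3 pooled animals at steady state and the other from 2 pooled animals infused with angiotensin II (AngII) at 1.8 µg per kg per min for 10 days by subcutaneous pumps. Angiotensin II is a vasopressor hormone whose infusion provokes adventitial inflammation. Since each condition is 1 library, there was no replicate error, and no difference between conditions could be tested.

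MS4A proteins span the membrane and are best known through *Ms4a1*, which encodes the B-cell antigen CD20, and *Ms4a2*, the β chain of the high-affinity IgE receptor of mast cells. The myeloid members act at the surface and in endosomes as partners of immune receptors. MS4A4A associates with the β-glucan receptor Dectin-1 in macrophages, and the human *MS4A4A* and *MS4A6A* region is linked to the level of soluble TREM2. *Ms4a7* is widely used as a marker of tissue macrophages at brain borders, and *Ms4a6b* and *Ms4a4b* are also known from T cells.

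After the filter on cell quality (300 to 6500 detected genes and at most 5% mitochondrial unique molecular identifiers, UMIs), 306 of 346 barcodes at steady state and 4198 of 4419 on AngII remained, and the libraries shared 0 barcodes. The depth differed strongly, with a median of 9105 UMIs per cell at steady state and 1092 on AngII. Cells were assigned to the class whose marker panel was most completely found, with at least 2 markers and no tie, which placed 287 and 3527 cells. Macrophages that carried the C1q panel were called resident macrophages when they also held at least 2 of the 6 markers *Lyve1*, *Folr2*, *Cd163*, *Cbr2*, *Gas6* and *F13a1*. The C1q panel summed to 18863 CPM in resident macrophages at steady state and 14260 CPM on AngII, with all 6 of its genes found. There were 116 resident macrophages at steady state and 874 on AngII. Other C1q macrophages were 6 and 1178 cells. This border was sharp at steady state, where 83 of 122 C1q macrophages held all 6 resident markers and 0 held exactly 2. On AngII it was not, since 545 cells held 1 and 331 held 2. The count of resident markers there followed depth, with a median of 817 UMIs in C1q macrophages with 0 markers and 9974 with all 6. On AngII other C1q macrophages had a median of 890 UMIs and resident macrophages 1937. The part of missed markers in this split was not tested. Monocyte and dendritic cell classes at steady state were small, with 10 classical monocytes, 13 nonclassical monocytes and 6 type-2 dendritic cells. All levels are given as UMIs of the gene scaled to the total UMIs of the class (CPM) with an exact 95% Poisson interval. A UMI of this 3′ assay counts 1 captured transcript end, so levels need no correction for gene length. Intervals cover counting error only and do not hold the spread between animals.

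All 6 genes lie on chromosome 19 (GRCm38) within 283.8 kb. From the proximal end, *Ms4a7* (ENSMUSG00000024672.11) occupies chr19:11321039-11336146 on the minus strand. *Ms4a4a* (ENSMUSG00000101389.1) follows at chr19:11375523-11392790 and *Ms4a4c* (ENSMUSG00000024675.19) at chr19:11404770-11427246, both on the plus strand. *Ms4a6c* (ENSMUSG00000079419.4) lies at chr19:11469366-11482192 and *Ms4a6b* (ENSMUSG00000024677.13) at chr19:11516512-11531256, also on the plus strand. *Ms4a6d* (ENSMUSG00000024679.10) closes the group at chr19:11586604-11604849 on the minus strand. The T-cell gene *Ms4a4b* sits between *Ms4a4c* and *Ms4a6c*, *Ms4a1* lies before the group and *Ms4a2* after it. Of the windows of 91 bases, the length of the transcript read, in the annotated transcripts of *Ms4a4c*, 38 of 1747 also occur in *Ms4a4b*. *Ms4a6b* and *Ms4a6c* share 6 such windows, and *Ms4a4a*, *Ms4a6d* and *Ms4a7* share 0 with any other MS4A gene. *Ms4a4c*, *Ms4a6c* and *Ms4a6b* each overlap a gene model on the opposite strand, and the strand setting of the counting was not given in the sources used here.

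Promoter sequence (RefSeq, GRCm38.p6) was at hand for 5 of the 6 members, and 1 of them, *Ms4a7*, has 2 entries. The 250 bases before the start site are shown for 4 genes whose levels set the cell classes apart. *Ms4a6b* and *Ms4a6c* come first, because they have the most similar promoters of all pairs compared. Capitals in these mark the runs of at least 12 bases that both hold.

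Ms4a6b, chr19:11518309-11518558, plus strand: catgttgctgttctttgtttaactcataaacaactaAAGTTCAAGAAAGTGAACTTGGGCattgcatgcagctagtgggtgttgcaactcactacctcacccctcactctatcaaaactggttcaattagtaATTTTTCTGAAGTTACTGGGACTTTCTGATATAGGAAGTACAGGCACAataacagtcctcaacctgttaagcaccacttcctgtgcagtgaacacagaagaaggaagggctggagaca

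Ms4a6c, chr19:11469118-11469367, plus strand: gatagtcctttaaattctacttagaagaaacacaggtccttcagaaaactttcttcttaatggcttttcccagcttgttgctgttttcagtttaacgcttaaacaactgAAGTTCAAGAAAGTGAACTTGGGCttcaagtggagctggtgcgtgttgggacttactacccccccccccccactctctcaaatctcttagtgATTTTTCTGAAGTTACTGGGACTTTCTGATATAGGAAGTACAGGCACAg

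The runs comprise 72 of the 250 bases in each. The longest is 48 bases, against at most 9 bases in any other pair of member promoters, and is printed here with GGAAGT, a core bound by ETS-type factors such as PU.1, in capitals.

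shared run of Ms4a6b and Ms4a6c, chr19:11518441-11518488, plus strand: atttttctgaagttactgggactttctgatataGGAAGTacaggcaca

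*Ms4a4c*, the member that differed most between the libraries in C1q macrophages, and *Ms4a7*, the one with the largest ratio of resident macrophages over monocytes, are shown with GGAAGT or its reverse complement ACTTCC in capitals.

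Ms4a4c, chr19:11407411-11407660, plus strand: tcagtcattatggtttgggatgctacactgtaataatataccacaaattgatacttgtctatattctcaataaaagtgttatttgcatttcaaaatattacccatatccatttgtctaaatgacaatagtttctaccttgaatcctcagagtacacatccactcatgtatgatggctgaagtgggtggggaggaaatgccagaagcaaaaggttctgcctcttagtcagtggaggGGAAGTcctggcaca

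Ms4a7, chr19:11336147-11336396, minus strand: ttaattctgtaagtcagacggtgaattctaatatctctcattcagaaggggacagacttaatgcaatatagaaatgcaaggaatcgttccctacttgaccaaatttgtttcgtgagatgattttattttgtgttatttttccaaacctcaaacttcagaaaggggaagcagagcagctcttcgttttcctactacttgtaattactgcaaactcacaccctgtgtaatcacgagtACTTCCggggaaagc

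GGAAGT on either strand occurred in 4 of the 6 member promoters, and in 19.7% of the 32851 promoters of the table. Among the 4 are *Ms4a6b* and *Ms4a6c*, which both hold it in their longest shared run, so these matches are not independent. In *Ms4a4c*, this *Ms4a7* entry and *Ms4a6c* it begins 15, 15 and 16 bases before the start site. The interferon-type pattern GAAANNGAA was found in 4 of 6 member promoters and in 7.13% of all. The 4 are both entries of *Ms4a7* and the promoters of *Ms4a6b* and *Ms4a6c*, where it lies in a run that both hold. The matches are therefore not independent, and their number cannot be read as an enrichment. The pattern was not found in the windows of *Ms4a4c* and *Ms4a4a*. The same pattern lengthened by an A at its end was in 0 of 6 member promoters and in 2.98% of all. The motifs were chosen after the sequences were seen, and a match is a description of letters, not of binding.

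**Figure D1:**
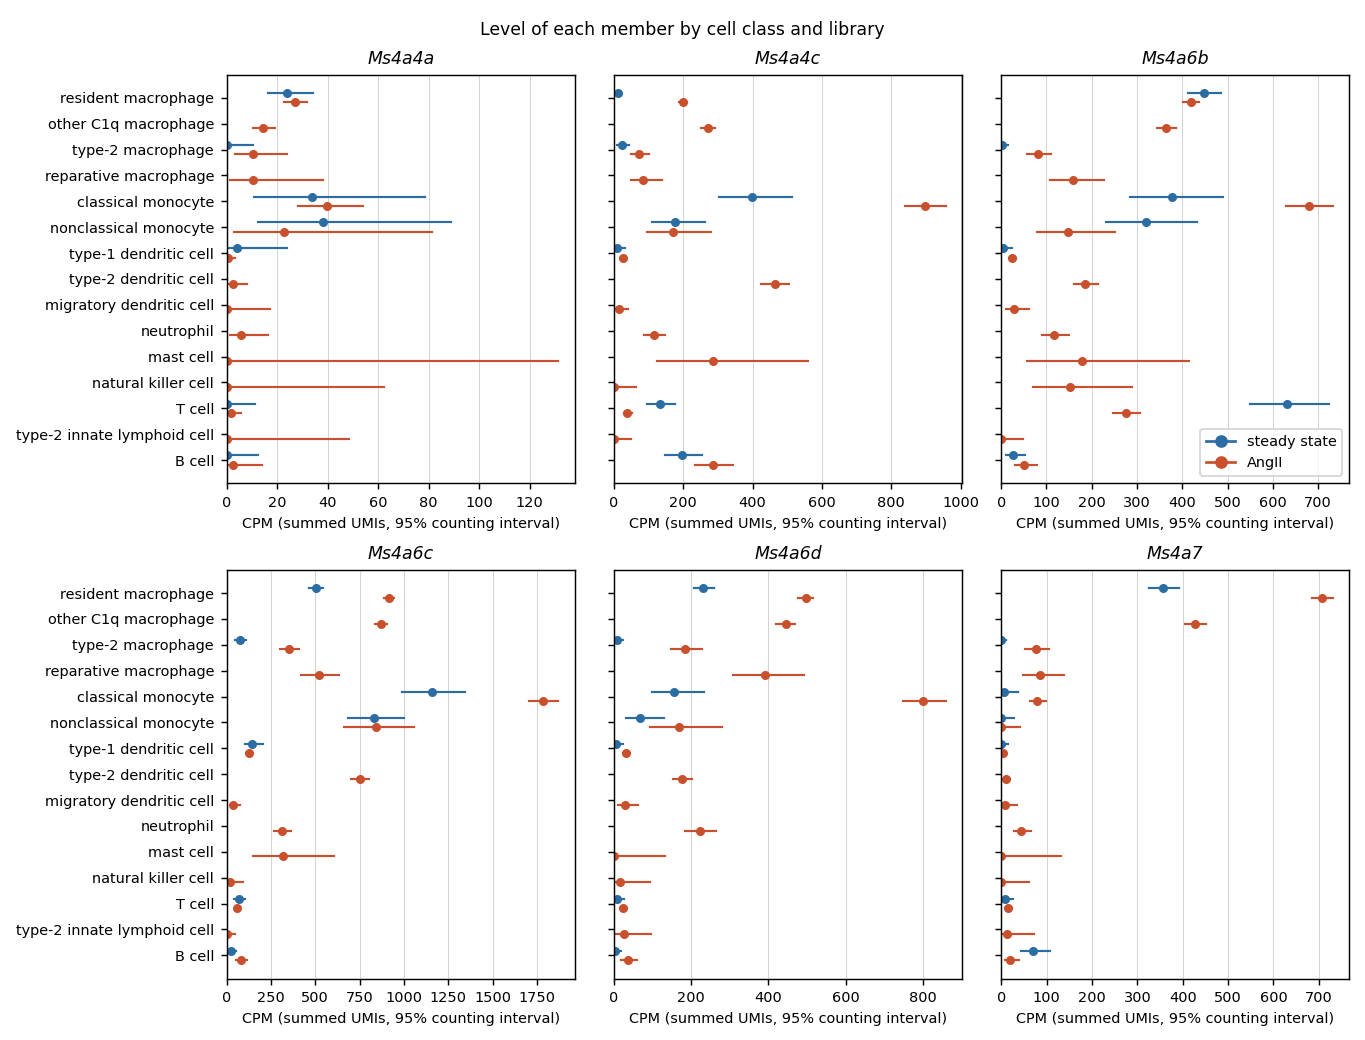
Level of each member by cell class. Each panel shows 1 gene, with CPM on the x axis and classes of at least 10 cells on the y axis; points are summed UMIs, bars the 95% counting interval, blue the steady-state library and orange the AngII library. *Ms4a7* is at 708 CPM in resident macrophages and 79.1 CPM in classical monocytes on AngII, *Ms4a6c* reaches 1786 CPM in classical monocytes, and *Ms4a6b* is at 632 CPM in T cells at steady state.

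*Ms4a7* had its highest levels in the C1q macrophages of both libraries among the classes with at least 20 cells. At steady state its level was 358 CPM (95% interval 326 to 392) in resident macrophages, where 96 of 116 cells held a UMI, and 6.74 CPM in classical monocytes, a single UMI. Nonclassical monocytes, type-2 macrophages and both dendritic cell classes held 0 UMIs of *Ms4a7* at steady state, which allows levels of up to 22.9, 8.46, 12.8 and 21.9 CPM (3 counts) in nonclassical monocytes, type-2 macrophages, type-1 and type-2 dendritic cells. On AngII it reached 708 CPM (685 to 731) in resident macrophages and 428 CPM (405 to 452) in other C1q macrophages. The intervals of these classes lie apart. Reparative macrophages, marked by *Arg1* and *Spp1*, classical monocytes and type-2 macrophages followed at 84.7, 79.1 and 76.0 CPM, with overlapping intervals. T cells at 14.6 CPM and type-1 dendritic cells at 4.205 CPM lay at the low end. In T cells this was 2.06% of the resident level, beside 1.80% for the C1q panel itself, which T cells are not known to express. The share of cells with a UMI of *Ms4a7* on AngII was 62.2% in resident macrophages (median 1937 UMIs) and 6.37% in T cells (median 1150 UMIs). At a common depth of 1000 UMIs per cell, the share was 43.5% (39.7 to 47.3, exact binomial interval, n = 665 cells) in resident macrophages, 26.5% in other C1q macrophages and 5.21% in classical monocytes.

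*Ms4a6c* was the most abundant member in the monocyte and macrophage classes with at least 20 cells. Its level on AngII was 1786 CPM (1705 to 1871) in classical monocytes. Resident and other C1q macrophages lay at 916 and 873 CPM with overlapping intervals, followed by type-2 dendritic cells at 750 CPM. Reparative macrophages held 519 CPM, with 42 of 98 UMIs from 1 cell. Type-2 macrophages held 349 CPM and neutrophils 312 CPM. At steady state it was 1159 CPM (992 to 1345) in classical monocytes and 831 CPM (682 to 1002) in nonclassical monocytes, with overlapping intervals. Resident macrophages at 504 CPM and type-2 dendritic cells at 483 CPM also had overlapping intervals. Every one of the 10 classical and 13 nonclassical monocytes held a UMI of *Ms4a6c*. The gene was low in T cells, at 68.9 CPM at steady state, where 20 of 23 UMIs came from 1 cell, and at 57.5 CPM on AngII.

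*Ms4a6d*, which has been described as a partner of the complement receptor VSIG4 in macrophages, was lower than *Ms4a6c* in each of the monocyte and macrophage classes with at least 20 cells. On AngII it was 801 CPM (747 to 858) in classical monocytes, 497 CPM (477 to 516) in resident macrophages and 445 CPM in other C1q macrophages. Reparative macrophages, at 392 CPM, did not lie apart from other C1q macrophages. Neutrophils at 222 CPM, type-2 macrophages at 185 CPM and type-2 dendritic cells at 177 CPM formed the next group with overlapping intervals. At steady state it was 232 CPM (206 to 260) in resident macrophages, 155 CPM (98.2 to 232) in classical monocytes and 68.6 CPM in nonclassical monocytes.

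*Ms4a4a*, whose product partners Dectin-1, was scarce in both libraries. It reached 23.95 CPM (16.3 to 34.0) in resident macrophages at steady state and 27.0 CPM (22.7 to 31.9) on AngII. Classical monocytes held 33.7 CPM at steady state, 5 UMIs, and 39.6 CPM (28.3 to 53.9) on AngII, which overlaps the resident level. In other C1q macrophages it was 14.3 CPM, and in T cells and B cells at most 2 UMIs were counted in either library. At 1000 UMIs per cell, 2.56% of resident macrophages on AngII held a UMI.

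*Ms4a4c* was high in monocytes, type-2 dendritic cells and B cells. On AngII it was 896 CPM (839 to 957) in classical monocytes and 464 CPM (424 to 505) in type-2 dendritic cells. B cells at 285 CPM and other C1q macrophages at 271 CPM came next with overlapping intervals, and resident macrophages held 199 CPM (187 to 212). Type-1 dendritic cells held 25.2 CPM. At steady state, resident macrophages carried 13.1 CPM (7.65 to 21.03), 17 UMIs in 10 of 116 cells, whereas classical monocytes carried 397 CPM (303 to 513) and all 10 held a UMI. B cells, at 196 CPM (149 to 253), and T cells, at 132 CPM (95.8 to 177), did not lie apart from each other. In T cells 16 of the 44 UMIs came from 1 cell.

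*Ms4a6b* joined macrophages and T cells. At steady state it was highest in T cells, at 632 CPM (550 to 723) with a UMI in 36 of 38 cells, ahead of resident macrophages at 448 CPM (412 to 486) with a UMI in 107 of 116 cells. Classical and nonclassical monocytes held 377 and 320 CPM. B cells held 27.0 CPM and type-1 dendritic cells 1 UMI. On AngII the order was classical monocytes at 680 CPM (630 to 732), resident macrophages at 420 CPM, other C1q macrophages at 365 CPM, T cells at 275 CPM (247 to 306) and type-2 dendritic cells at 186 CPM, each apart from the next. T cells thus carried 65.6% of the resident level of *Ms4a6b* on AngII, beside 1.80% for the C1q panel.

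**Figure D2:**
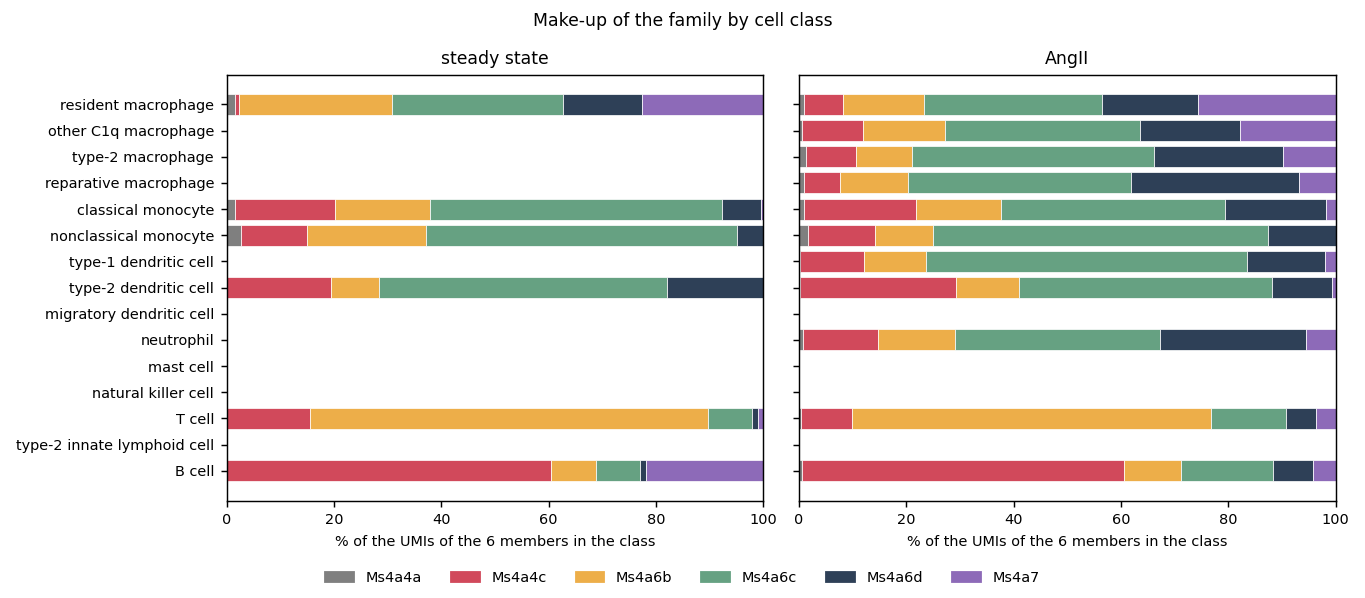
Make-up of the family by cell class. Bars give the percentage of all UMIs of the 6 members in a class that belonged to each gene, for classes with at least 50 such UMIs, at steady state (left) and on AngII (right). *Ms4a7* takes 22.7% and 25.6% in resident macrophages and 1.85% in classical monocytes on AngII, *Ms4a6b* takes 74.3% and 66.9% in T cells, and *Ms4a4c* takes 60.4% and 60.1% in B cells.

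The make-up of the family differed between classes. Of all UMIs of the 6 members, *Ms4a7* took 25.6% (24.9 to 26.3) in resident macrophages on AngII, 17.9% in other C1q macrophages, 1.85% (1.47 to 2.29) in classical monocytes and 0.677% in type-2 dendritic cells. At steady state its share was 22.7% in resident macrophages and 0.316% in classical monocytes. *Ms4a6b* took 74.3% (68.8 to 79.3) in T cells at steady state and 66.9% (62.6 to 71.0) on AngII. *Ms4a4c* took 60.4% (49.9 to 70.3) and 60.1% (52.7 to 67.2) in B cells. *Ms4a6c* led in the monocyte, dendritic cell and neutrophil classes, with 41.7% in classical monocytes and 47.2% in type-2 dendritic cells on AngII. Reparative macrophages had the largest share of *Ms4a6d* among the classes shown, at 31.4% (25.5 to 37.7), with 6.78% for *Ms4a7*. Neutrophils at 27.2% (23.1 to 31.6) and type-2 macrophages at 23.9% (19.7 to 28.6) on AngII had intervals for *Ms4a6d* that overlap it. At 1000 UMIs per cell, 25.7% of 665 resident macrophages and 45.8% of 96 classical monocytes on AngII held at least 3 members, against 9.57% of 115 resident macrophages at steady state.

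**Figure D3:**
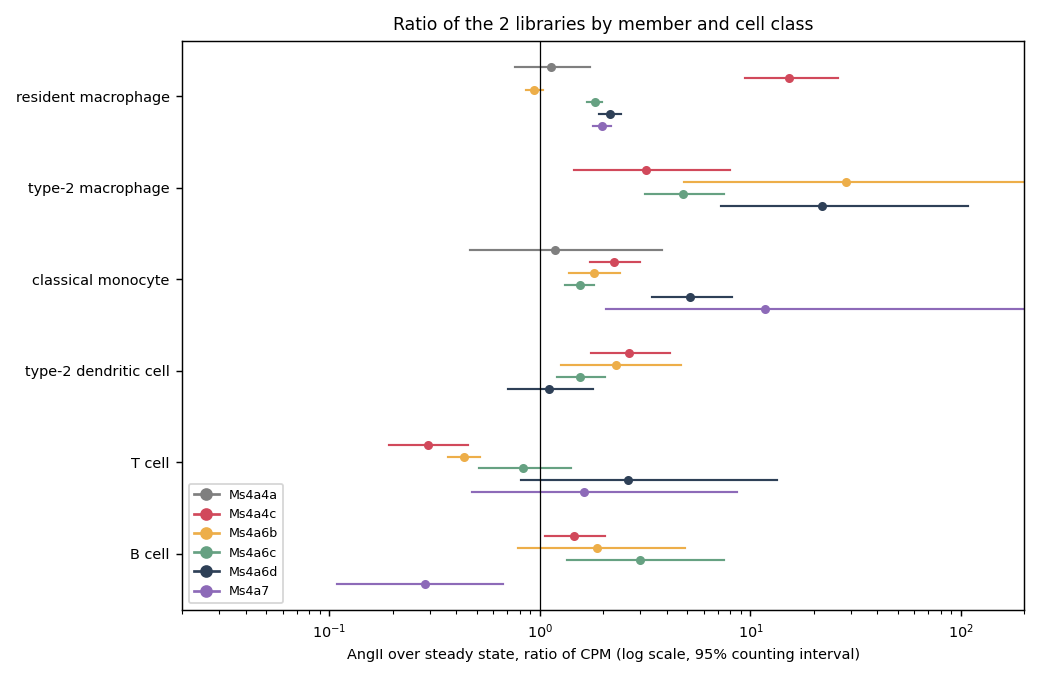
Ratio of the libraries by member and class. The x axis is the CPM on AngII over the CPM at steady state on a log scale, points are ratios, bars the exact 95% counting interval drawn to the edge of the axis, and the line marks 1; members with fewer than 20 UMIs in both libraries together, or with 0 at steady state, are left out. In resident macrophages *Ms4a4c* lies at 15.2, and *Ms4a6b* and *Ms4a4a* have intervals that include 1, while *Ms4a4c* and *Ms4a6b* lie below 1 in T cells.

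The comparison of the libraries asked how the family differed in macrophages after 10 days of AngII. In all C1q macrophages *Ms4a4c* was 18.4-fold higher on AngII (11.5 to 31.7), with 226 CPM against 12.2 CPM. *Ms4a6d* was 2.21-fold higher (1.96 to 2.49), *Ms4a6c* 1.85-fold (1.71 to 2.01) and *Ms4a7* 1.78-fold (1.62 to 1.96). *Ms4a6b*, at a ratio of 0.956 (0.875 to 1.05), and *Ms4a4a*, with 22.4 against 22.3 CPM (interval of the ratio 0.681 to 1.52), had intervals that include 1. Thus 2 of 6 members were at least 2-fold higher and 0 at least 2-fold lower, while among 6093 genes with a mean of at least 20 CPM 4.69% were at least 2-fold higher and 6.75% lower. *Ms4a6d* was under 2-fold as a mean per cell (1.95), in classes from clusters (1.95) and thinned to 1000 UMIs (1.58), and *Ms4a4c* was at 31.1 without cells that carried markers of another lineage. The members' median was 0.84 on the log2(CPM + 10) scale, beside -0.03 on the same scale for all those genes. The summed level of the 6 members was 1.76-fold higher on AngII.

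Because only 6 cells were gated as other C1q macrophages at steady state, the same ratios were taken in resident macrophages alone. *Ms4a4c* was 15.2-fold higher there (9.44 to 26.2), *Ms4a6d* 2.14-fold, *Ms4a7* 1.98-fold (1.80 to 2.18) and *Ms4a6c* 1.82-fold, so that 2 of 6 members were at least 2-fold higher, beside 4.75% of 6123 genes, and 0 at least 2-fold lower, beside 5.65%. Other marker panels also differed within resident macrophages. From steady state to AngII, the classical monocyte panel went from 41.7 CPM with 2 of 6 markers at 0 to 585 CPM with 0 at 0, the reparative panel from 23.2 CPM with 5 of 6 at 0 to 1730 CPM with 0 at 0, and the resident panel from 7643 to 2821 CPM. Their part in the ratios was not tested. With at least 5 of the 6 resident markers in both libraries, a limit set after the data were seen that left 187 cells on AngII and 103 at steady state, *Ms4a4c* was 11.2-fold higher (6.30 to 22.1), with 111 CPM against 9.90 CPM. *Ms4a6d* was then 2.17-fold, *Ms4a7* 2.04-fold and *Ms4a6c* 1.78-fold higher. Resident macrophages in which none of 10 interferon markers was found differed 9.02-fold in *Ms4a4c* (4.27 to 22.8), with 90.2 CPM in 444 cells on AngII against 10.0 CPM in 71 cells at steady state. Resident macrophages had a median of 1937 UMIs on AngII and 9752 at steady state, so a marker is more easily missed on AngII. This gate therefore does not show that the cells lacked an interferon response. In this subset 1 of 6 members was at least 2-fold higher, beside 5.44% of 6174 genes, and 0 lower, beside 6.71%. In these cells *Ms4a6b* was at a ratio of 0.818 (0.714 to 0.938) and *Ms4a7* at 1.99. Treatment, depth, animal pool and library cannot be told apart in any of these ratios.

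In classical monocytes, where steady state gave 10 cells, *Ms4a6d* was 5.17-fold higher on AngII (3.42 to 8.20), *Ms4a4c* 2.25-fold (1.73 to 2.99), *Ms4a6b* 1.80-fold and *Ms4a6c* 1.54-fold. *Ms4a7* was 80 UMIs against 1, a ratio of 11.7 with an interval of 2.05 to 470. The C1q panel in classical monocytes was 505 CPM at steady state, with 2 of 6 markers at 0, and 1507 CPM on AngII, with 0 at 0. On AngII this was 10.6% of the resident level of the panel, beside 11.2% for *Ms4a7*, and its part in the result was not tested. Here 3 of 6 members were at least 2-fold higher, beside 10.7% of 5618 genes, and 0 lower, beside 14.1%. Type-2 macrophages, marked by *Ear2* and *Retnla*, carried little of the family at steady state, with 2.82 CPM of *Ms4a6b* in 15 cells against 80.1 CPM in 269 cells on AngII. *Ms4a6c* was 4.76-fold (3.14 to 7.50) and *Ms4a6d* 21.9-fold (7.24 to 108) higher in this class. At steady state 15 of the 26 UMIs of *Ms4a6c* and all 3 of *Ms4a6d* came from 1 cell, and *Ms4a6b* was 1 UMI. The class also differed in its markers, since 133 of 269 cells on AngII and 0 of 15 at steady state held exactly 2 of its own. Its own panel was 29077 CPM at steady state and 9312 CPM on AngII. The classical monocyte, reparative and neutrophil panels, each with 5 of 6 markers at 0 at steady state, went from 2.82, 5.64 and 2.82 CPM to 565, 641 and 1066 CPM with 0 at 0, and their part was not tested. *Ms4a7* was 37 UMIs on AngII against 0, with a lower limit of 6.95 for the ratio, and 8.98-fold higher when counted against a floor of 3 UMIs. Thus all 5 members with a mean of at least 20 CPM were at least 2-fold higher, beside 9.66% of 5681 genes, and 0 lower, beside 6.60%. *Ms4a4c*, counted among them, had 8 UMIs at steady state, all from 1 cell. In type-2 dendritic cells, 6 cells at steady state, *Ms4a4c* was 2.64-fold (1.76 to 4.16) and *Ms4a6b* 2.31-fold (1.26 to 4.69) higher, 2 of the 4 members with a mean of at least 20 CPM, beside 13.9% of 5584 genes higher and 14.2% lower.

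Lymphoid cells were compared in the same way. In T cells *Ms4a6b* was 0.435-fold the steady-state level on AngII (0.366 to 0.519) and *Ms4a4c* 0.295-fold (0.192 to 0.454), or 0.385-fold (0.233 to 0.645) without the cell with the most UMIs in each library. Of the 3 members with a mean of at least 20 CPM, 2 were thus at least 2-fold lower, beside 8.35% of 5857 genes, and 0 higher, beside 17.4%. *Ms4a6d*, under that mean, had a ratio of 2.61 (0.810 to 13.4). The T-cell gene *Ms4a4b*, which shares windows with *Ms4a4c*, was 1554 CPM in T cells at steady state and 585 CPM on AngII. The T-cell class also differed in its gate. On AngII 49 of 267 T cells held exactly 2 of their own markers, and at steady state 0 of 38 did. Median depth was 1150 and 8185.5 UMIs, and the C1q panel in T cells 257 and 56.9 CPM. The part of these differences was not tested. In B cells *Ms4a6c* was 2.99-fold higher (1.35 to 7.51) and *Ms4a7* was at 0.285 (0.109 to 0.670), resting on 1 steady-state cell with 18 of 21 UMIs and at 1.43 (0.305 to 8.81) without the top cell of each library. This is 1 of the 4 members with a mean of at least 20 CPM in each direction, beside 5.85% of 5611 genes higher and 8.20% lower. *Ms4a6d*, under that mean, was 14 UMIs on AngII against 1, a ratio of 10.47 (1.59 to 443). *Ms4a4c* was 1.46-fold higher there (1.05 to 2.04), and *Ms4a1* was 1577 CPM at steady state and 1174 CPM on AngII. Type-1 dendritic cells showed *Ms4a6c* at a ratio of 0.879 (0.610 to 1.30), the 1 member there with a mean of at least 20 CPM, so that 0 members were past 2-fold, beside 8.29% of 5223 genes higher and 9.25% lower.

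Resident macrophages were next set against classical monocytes of the adventitia within the AngII library. *Ms4a7* was 8.94-fold higher in resident macrophages (7.17 to 11.3). The others were lower there, with ratios of 0.223 (0.203 to 0.244) for *Ms4a4c*, 0.513 (0.485 to 0.541) for *Ms4a6c*, 0.618 for *Ms4a6b*, 0.620 for *Ms4a6d* and 0.682 (0.477 to 0.996) for *Ms4a4a*. One member was thus at least 2-fold higher, beside 7.63% of 5836 genes, and 1 at least 2-fold lower, beside 3.80%. At steady state the ratio was 53.1 for *Ms4a7*, resting on 1 UMI in monocytes, 0.0330 (0.0181 to 0.0575) for *Ms4a4c* and 0.435 (0.367 to 0.517) for *Ms4a6c*. *Ms4a6b* at 1.19 (0.902 to 1.59) and *Ms4a6d*, with 232 against 155 CPM (interval of the ratio 0.978 to 2.40), had intervals that include 1. There 1 of 6 members was at least 2-fold higher, beside 18.7% of 6024 genes, and 2 lower, beside 15.9%. Averaging the CPM of single cells gave 5.83 for *Ms4a7* on AngII, and requiring 5 resident markers gave 0.124 for *Ms4a4c*. Resident over other C1q macrophages gave 1.89 for *Ms4a4a* (1.33 to 2.73), 1.65 for *Ms4a7* (1.55 to 1.76) and 0.736 for *Ms4a4c*, with 0 of 6 members past 2-fold, beside 2.30% of 5924 genes higher and 0.912% lower. The 2 classes also differed in depth, with medians of 1937 and 890 UMIs, and the part of depth was not tested.

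The conventional dendritic cell classes differed in their levels of the family. On AngII, type-2 over type-1 dendritic cells gave 18.4 for *Ms4a4c* (13.4 to 25.8), 7.54 for *Ms4a6b* (5.37 to 10.8), 5.87 for *Ms4a6c* (5.04 to 6.85) and 5.65 for *Ms4a6d* (4.15 to 7.83), so that all 4 members with a mean of at least 20 CPM were at least 2-fold higher, beside 11.2% of 5436 genes, and 0 lower, beside 6.31%. Classical monocytes over type-2 dendritic cells gave 7.36 for *Ms4a7* (3.99 to 14.8), 4.54 for *Ms4a6d*, 3.66 for *Ms4a6b*, 2.38 for *Ms4a6c* and 1.93 for *Ms4a4c* (1.73 to 2.16). *Ms4a4a* gave 14.7 (4.68 to 74.3), resting on 3 UMIs in 2 of 112 type-2 dendritic cells. With it, 5 of 6 members were past 2-fold, beside 9.92% of 5627 genes higher and 7.54% lower. *Ms4a7* and *Ms4a4a* were at or under 10.8 CPM in both dendritic cell classes. Type-2 dendritic cells had a median depth of 9069 UMIs and type-1 dendritic cells 1635. At 1000 UMIs per cell, *Ms4a6c* was found in 46.8% of 77 type-2 and 12.7% of 134 type-1 dendritic cells.

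**Figure D4:**
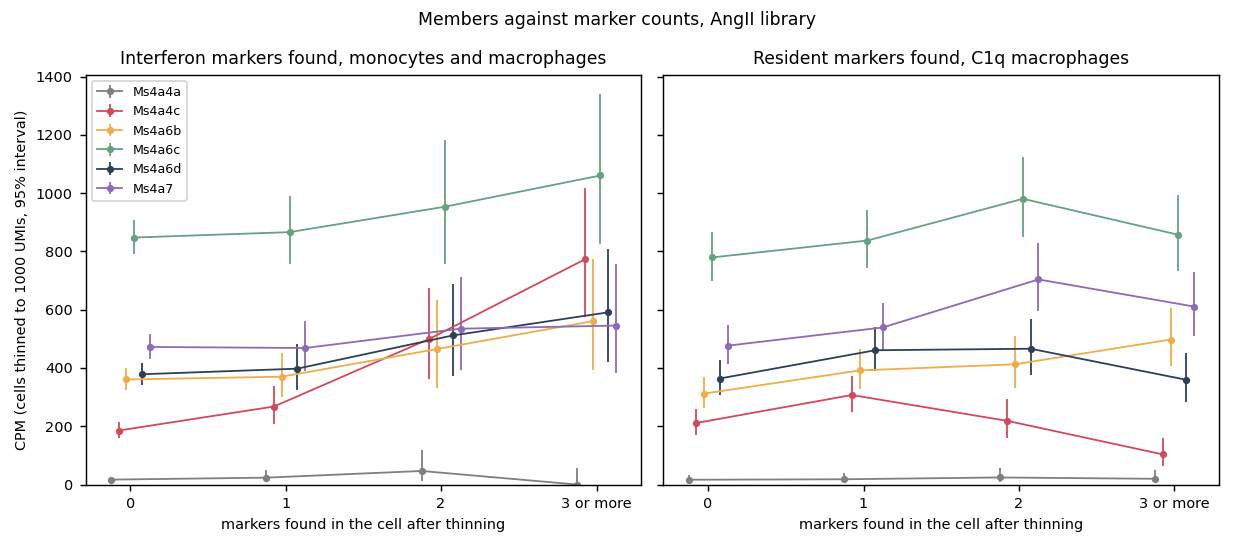
Members against marker counts on AngII. The y axis is CPM in cells thinned to 1000 UMIs with 95% counting intervals, and the x axis is the number of interferon markers found in monocytes and macrophages (left) or of resident markers found in C1q macrophages (right). *Ms4a4c* goes from 185 to 773 CPM over the interferon markers and is lowest, at 103 CPM, with 3 or more resident markers.

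Interferon-high cells, monocytes and macrophages with at least 3 of 10 interferon-stimulated genes such as *Isg15*, *Ifit1* and *Rsad2*, were compared with the remaining cells of these classes on AngII (244 against 2316 cells). *Ms4a4c* was 2.76-fold higher in them (2.56 to 2.98), with 526 CPM against 190 CPM. *Ms4a6b* was 1.45-fold (1.36 to 1.55), *Ms4a6c* 1.36-fold, *Ms4a6d* 1.30-fold and *Ms4a7* 1.19-fold higher, and *Ms4a4a* at 1.12 (0.830 to 1.49) had an interval that includes 1. One of 6 members was past 2-fold, beside 1.34% of 5911 genes, and 0 lower, beside 0.118%. A deeper cell shows more markers, so the same was read in cells thinned to 1000 UMIs, where the markers were counted again. *Ms4a4c* was 185 CPM (160 to 214) in 1004 cells with 0 interferon markers, 268 CPM (208 to 339) with 1, 500 CPM (362 to 673) with 2 and 773 CPM (575 to 1016) with 3 or more. *Ms4a7* went from 472 CPM (431 to 517) to 545 CPM (382 to 755) over the same bins, which overlap.

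The comparison was repeated within 3 of the 6 classes. Interferon-high resident macrophages held 342 CPM against 127 CPM in the other resident macrophages, a ratio of 2.69 (2.37 to 3.05). In other C1q macrophages the ratio was 2.79 (2.42 to 3.22), and in classical monocytes 2.29 (2.0002 to 2.61), with 1403 CPM against 614 CPM. *Ms4a4c* was the 1 member of 6 past 2-fold in each of these, beside 1.47%, 2.39% and 4.33% of genes higher and 0.134%, 1.65% and 3.95% lower in resident, other C1q macrophages and monocytes. *Ms4a7* did not keep 1 direction, with 0.871 (0.811 to 0.936) in resident macrophages, 1.88 (1.67 to 2.12) in other C1q macrophages and 1.99 (1.25 to 3.17) in classical monocytes. At steady state, 15 interferon-high cells held 115 CPM of *Ms4a4c* against 44.4 CPM in 145 others, a ratio of 2.58 (1.62 to 4.02), and the ratio of *Ms4a6d* was 0.588 (0.375 to 0.885), with 1 of 6 members past 2-fold higher, beside 5.42% of 6108 genes, and 0 lower, beside 4.32%. Over resident markers in thinned C1q macrophages on AngII, *Ms4a4c* was 211, 307, 218 and 103 CPM with 0, 1, 2 and 3 or more markers, and the last interval, 64.0 to 158, lies below the first 3. *Ms4a7* was 477, 539, 704 and 611 CPM in the same bins.

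The eYFP reporter marks cells of yolk sac origin, and resident macrophages with at least 1 *Yfp* UMI were compared with those without. On AngII, *Ms4a4c* was 133 CPM in 228 *Yfp*+ cells and 264 CPM in 646 *Yfp*− cells, a ratio of 0.502 (0.439 to 0.574). *Ms4a7* was 785 and 633 CPM, a ratio of 1.24 (1.16 to 1.32), and *Ms4a6c* had a ratio of 0.934 (0.882 to 0.990). *Ms4a4a*, *Ms4a6b* and *Ms4a6d* had intervals that include 1. At least 2-fold differences were not reached by any member, beside 0.735% of 5985 genes lower and 0.251% higher. With the member counts thinned to 1000 UMIs per cell, the ratio of *Ms4a4c* was 0.697 (0.459 to 1.03), which includes 1, and that of *Ms4a7* 1.29 (1.07 to 1.56). The *Yfp* call depends on depth and was made at full depth in both cases, so thinning does not remove that dependence. At steady state, with 89 and 27 cells, every member had an interval that includes 1 and 0 of the 5 with a mean of at least 20 CPM were past 2-fold, beside 7.24% of 6120 genes higher and 6.01% lower.

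Of the other MS4A genes, 15 were listed, 7 of them with 0 UMIs in both libraries and 3 with 1 to 10. *Ms4a1* and *Ms4a2* were found where their known roles place them, the latter at 1236 CPM in mast cells at steady state and 249 CPM, 7 UMIs, on AngII. *Ms4a8a*, described in alternatively activated macrophages, was 38.6 CPM in resident macrophages at steady state, and 57.5 CPM in resident macrophages and 99.9 CPM in classical monocytes on AngII. *Ms4a14* was 25.5 and 27.6 CPM in resident macrophages and 10.2 CPM in other C1q macrophages on AngII. The related *Tmem176a* and *Tmem176b*, ion channels of myeloid cells, reached 955 and 995 CPM in type-2 dendritic cells on AngII and 19.2 and 22.8 CPM in type-1 dendritic cells.

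The partner genes were widely present beside the family. *Trem2*, a lipid receptor of macrophages, was 155 CPM (134 to 177) in resident macrophages at steady state and 342 CPM (327 to 359) on AngII. Its signalling adaptor *Tyrobp* was 1376 and 2105 CPM, and *Fcer1g*, the common Fc receptor γ chain, 1670 and 2775 CPM. *Clec7a*, which encodes Dectin-1, was higher in classical monocytes than in resident macrophages, at 428 against 164 CPM on AngII and 647 against 107 CPM at steady state. The kinase gene *Syk* was 189 CPM in resident macrophages at steady state and 151 CPM on AngII.

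Genes with the most similar level pattern were read from Pearson's r of log2(CPM + 10) over the 15 classes of both libraries with at least 20 cells. The search covered 7657 genes with at least 200 UMIs in all. Genes of the marker panels were left out, so their likeness to the members is not given. These points share libraries and depth, so r is a description. *Ms4a7* was closest to *Stab1* (0.93), *Cmklr1* and *Mertk*, a scavenger receptor, a chemerin receptor and an efferocytosis receptor. *Ms4a6c* was closest to *Ifitm3* (0.97), *Clec4a1* and *Clec4a3*, and *Ms4a6d* to *Ctsl* (0.96), *Ltbr* and *Xdh*. *Ms4a4a* was closest to *Ms4a8a* (0.95), *Lyz2* and *Scamp1*, and *Ms4a6b* to the adaptor gene *Fyb* (0.93), *Gbp7* and *Mocs2*. *Ms4a4c* had none of the searched genes above 0.73, with *AB124611*, *Phf8* and *Rnf34* first. Among the members themselves the highest r was 0.87 between *Ms4a4a* and *Ms4a6d* and the lowest 0.07 between *Ms4a4c* and *Ms4a7*, while *Ms4a6b* and *Ms4a6c*, with the shared promoter runs, reached 0.61.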

How the data were processed

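Single-cell libraries were prepared from sorted CD45+ adventitial cells and sequenced on an Illumina HiSeq. The authors demultiplexed reads with Je, mapped them with Cell Ranger 3.1.0 to the mouse genome GRCm38.p6 extended by eYFP, with GENCODE annotation M24, and the deposited matrices hold raw UMI counts, not normalized, for barcodes called as cells. The submitters' processing notes name bcl2fastq as well.

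Here barcodes outside 300 to 6500 detected genes, or over 5% mitochondrial UMIs, were dropped and the rest gated with 16 marker panels. Doublets were left in. Ungated cells (19 at steady state, 671 on AngII) entered no class comparison. Counts were summed per class, since cells are not replicates, and no test was run. Levels are CPM with exact Poisson intervals, shares have Clopper-Pearson intervals, and ratios have exact conditional binomial intervals. For shares at equal depth each cell was thinned to 1000 UMIs, which left out 3 cells at steady state and 1910 on AngII. Total counts were 4009678 and 20481854 UMIs. The 1 barcode set per condition gives counting error only. The ratio and gate code was tested on simulated data.

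Named genes were the 6 members, the other MS4A genes with *Tmem176a* and *Tmem176b*, 5 partner genes, and the 3 genes most similar to each member. Members, marker panels and lists were chosen with earlier results of these data known. Gene positions are from GENCODE on GRCm38, where all 6 versioned identifiers matched. Alternatives covered the cell filter, gate, clusters (Scanpy 1.11.5), weighting, depth, single cells, doublets and the B-cell level as a stand-in for free RNA. Analyses used Python 3.11.15, NumPy 2.4.6 and SciPy 1.17.1.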

Additional observations from a re-analysis of the deposited data

Results flagged for a closer look

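Ratios of AngII over steady state ran against those of the same gene in other cell classes for 3 pairs of gene and class, with counting intervals clear of 1, and the difference between classes was not tested. *Ms4a4c* was 0.295 in T cells (0.192 to 0.454) but above 1 in 5 of the 7 classes compared, with 15.2 in resident macrophages. *Ms4a6b* was 0.435 in T cells (0.366 to 0.519) and 1.80 in classical monocytes, and stayed at 0.428 (0.358 to 0.514) without the T cell that held the most UMIs in each library. Exactly 2 T-cell markers were held by 49 of 267 T cells on AngII and 0 of 38 at steady state, and the part of this was not tested. *Ms4a7* was 0.285 in B cells (0.109 to 0.670), but 18 of its 21 UMIs in steady-state B cells came from 1 cell, and without the top cell of each library the ratio was 1.43 (0.305 to 8.81).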

How the results depend on the processing

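Of 171 recomputed member ratios, 134 stayed within the counting interval of the main value and 37 moved outside it. A reversal was counted only where the main interval excludes 1, and there were 0. Ratios whose main interval includes 1 did cross it, such as *Ms4a4a* (0.673 to 2.26) and *Ms4a6b* (0.845 to 1.10) over steady state in C1q macrophages. The summed level of the members on AngII over steady state in C1q macrophages, 1.76, was 1.68 with all barcodes, 1.51 as a mean per cell, 1.63 thinned to 1000 UMIs and 1.55 in clusters, and the members at least 2-fold higher went from 2 to 1 as a mean per cell and in clusters. Resident macrophages over classical monocytes, 0.646 for the sum, gave 0.612 with all barcodes, 0.692 as a mean per cell, 0.602 with the B-cell level subtracted and 0.693 in clusters, with 2 members at least 2-fold lower in place of 1 with all barcodes and when thinned. Interferon-high over other cells, 1.44, gave 1.36 with all barcodes, 1.497 as a mean per cell, 1.51 thinned and 1.55 with the B-cell level subtracted. Past 1.5 times the main value were *Ms4a4c* over steady state (31.1 without cells carrying markers of another lineage, 11.2 with at least 5 resident markers) and against monocytes (0.124), *Ms4a4a* (2.26 thinned) and *Ms4a7* against monocytes (5.83 per cell). The causes were not tested. The limit of 5 resident markers was chosen after seeing the data. *Ms4a4c* has no value with the B-cell level subtracted, since a compared class did not exceed that level. That subtraction stands in for free RNA but cannot measure it alone, because *Ms4a4c* was high in B cells. There it made up 60.1% of the members' UMIs on AngII. No paired analysis was possible because each condition is 1 library with no replicate number. The steady-state monocyte and dendritic cell classes are limited by their 6 to 13 cells, and *Ms4a4a* by its low level.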
